A study of Mus musculus with 8 samples.

Results

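The genes described here are 34 genes that neurons use, from proneural transcription factors to catecholamine enzymes, read in pools of mouse cardiac outflow tract. Members were found by gene name, or by the gene of the probe's transcript accession, among the non-control spots of an Agilent 60-base oligonucleotide array. All 34 were on the array, with 45 of its 55681 probes, among 36334 named genes and transcripts. Of them, 28 were tested over all 8 arrays, beside 24288 genes in all, and 26 without wild type pool 1, beside 23668. In these 2 fits no member and no other gene passed an adjusted p of 0.05 (limma), so what follows gives levels and differences with their errors.

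The knockout embryos were Raldh2-/-, lacking the main embryonic retinaldehyde dehydrogenase (official gene symbol Aldh1a2), and were set against wild type littermates. The dams of both groups had eaten food with 0.1 mg/g all-trans-retinoic acid from E7.5 to E8.5, so the knockouts are rescued knockouts and the wild types were exposed too. Outflow tracts were dissected at E10.5, each pool held 4 of them, and each pool was read on 1 one-colour array, giving knockout pools 1, 2, 3 and 7 and wild type pools 1, 2, 5 and 7. Only RNA with an integrity number over 8.0 was used, at 50 ng per labelling. Raldh2 knockouts depend on this maternal supply, so the comparison is between embryos with and without their own enzyme after the same early dose.

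Neurons that reach the heart come from neural crest cells that travel through the pharyngeal arches and settle as cardiac ganglia, while placodes give the sensory neurons of the nearby vagal ganglia. Proneural bHLH factors start the neuronal programme; Hu proteins, neuronal tubulin, stathmins and neurofilaments follow as the cell leaves the cycle and grows an axon; Phox2a, Ret signalling and the enzymes Th and Dbh mark the autonomic branch. Crest cells, the outflow tract wall and other cells also express some of these genes, so a signal in a dissected tract is not a count of neurons. In pooled tissue, fewer cells of a type and less RNA per cell cannot be told apart.

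One array, that of wild type pool 1, differed from the rest. Spots well above background made up 61.1% to 63.2% on the knockout arrays, against 53.3% to 62.5% on 3 of the wild type arrays and 94.7% on this one. The knockout arrays had median processed signals of 59.97 to 83.0, against 40.0 to 56.9 on 3 of the wild type arrays and 2023 on that of pool 1. Its median correlation with the other arrays was 0.682, while for the rest that value lay between 0.967 and 0.985. Differences are therefore given with all 8 pools and with the 7 left when wild type pool 1 is set aside, except for Neurog1 and Gfra1, which were not tested in 7. All arrays lay on 1 slide, the knockouts in one row and the wild types in the other, and an effect of row cannot be told apart from one of genotype. The labels do not say how pool numbers relate to litters, and the p-values measure the spread between pools with 1 array each.

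Aldh1a2 itself had log2 relative signals of 2.26, 2.23, 2.11 and 0.28 in the knockout pools, against 1.95 in wild type pool 1 and 3.44, 3.21 and 3.89 in wild type pools 2, 5 and 7. Here and throughout, a log2 relative signal is the log2 processed signal minus that array's 75th percentile. Without wild type pool 1 every knockout value was below every wild type value, and the difference was -1.80, 3.47-fold lower in the knockout (exact permutation test, two-sided p = 0.0286, the smallest that 35 assignments allow). With all 8 pools the groups overlapped and the difference was -1.40 (exact permutation p = 0.114 over 70 assignments). Whether the probe lies in the deleted part of the gene is not given in the sources used here. The tissue label was checked with 8 outflow tract genes (Isl1, Hand2, Tbx1, Tbx20, Wnt11, Rgs5, Sema3c, Bmp4), and all 8 were above background in every pool.

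The probes behind the values are short pieces of each transcript, and 10 of them are shown as 30-base stretches because the results below turn on them or because their letters bear on how they can be read. Positions are those of the whole probe in mm9, as the files give them. Capitals mark runs of at least 3 CA, AC, GT or TG units in the first 3 and the hexamer AATAAA in the next 2. In the last 2 they mark bases shared by both Stmn4 probes. The Elavl2, Elavl3 and Map2 stretches carry none.
Snap25, chr2:136607709-136607768, plus strand, bases 1 to 30: CACACACACACACACACACAaagtggattt
Elavl4, chr4:109877455-109877514, minus strand, bases 31 to 60: TGTGTGTGTGtatgtgtacatataatataa
Nhlh1, chr1:173987638-173987697, minus strand, bases 10 to 39: gtgtagGTGTGTGTatgtaTGTGTGagtgt
Stmn2, chr3:8561545-8561604, plus strand, bases 31 to 60: gatgAATAAAgaattggagttctgtgaact
Tubb3, chr8:125945850-125945909, plus strand, bases 31 to 60: acttAATAAAgttactgctgtctgtcagat
Elavl2, chr4:90917989-90918048, minus strand, bases 31 to 60: acattatctttgcagttgctttgagtttta
Elavl3, chr9:21822471-21822530, minus strand, bases 31 to 60: caggtttaaaaatccccaaaacggcaaaaa
Map2, chr1:66488783-66488842, plus strand, bases 31 to 60: aagttttagcctggacatgtagattgaggc
Stmn4 first probe, chr14:66980442-66980501, plus strand, bases 21 to 50: TGCGTCTGTTCATTGTCATCTTTTgatcat
Stmn4 second probe, chr14:66980426-66980485, plus strand, bases 7 to 36: tgccctgcagCGGGTGGGATAAGGTCTGTG

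The Elavl, stathmin and neurofilament families are sets of related genes, but their probes here shared no stretch longer than 7 bases, and those of Dpysl3 and Crmp1 none longer than 5. The hexamer AATAAA, the usual signal for adding the poly(A) tail, was searched on the probe's own strand and stood in 3 of 45 neuronal probes (6.7%), against 10.1% of all probes. The Snap25 probe opens with 10 CA units. On the array, 110 probes had a run of at least 8 CA, AC, GT or TG units. Of these, 109 were above background (99.1%), against 58.2% of all probes, a comparison made after the values were seen. The median knockout minus wild type difference of those repeat probes that were above background was 0.044 without wild type pool 1, against 0.048 for all probes above background. Which RNA a CA run captures was not tested, and the Snap25 values below carry that limit. The first 20 bases of the Nhlh1 probe are the last 20 bases of the RefSeq window (GRCm38.p6) that runs 250 bases before to 50 bases after the gene's start, so by that annotation this probe lies near the 5′ end of the gene.

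The other 6 members did not meet the filter, which asked for a signal well above background on 3 arrays of 1 group. Neurog2 and Neurod4, proneural bHLH factors, and Chrna3, the nicotinic receptor subunit of autonomic neurons, were above background in wild type pool 1 and in no other pool. Neurod1, a bHLH factor of differentiating neurons, was the same on one of its 2 probes and below background in all 8 pools on the other. Nhlh2, a bHLH factor of young neurons, was above background in knockout pool 7 and wild type pool 1 only. Ret, the GDNF receptor kinase, was above background in knockout pools 3 and 7 as well as wild type pools 1 and 2. Its values were -5.91, -6.40, -3.99 and -3.60 in the knockout pools, against -2.83 in wild type pool 1 and -4.85, -7.45 and -6.34 in the other wild type pools, so both groups held pools with and without a measurable level. Counting all 34, 27, 26, 28 and 29 members were above background in the knockout pools, against 34 in wild type pool 1 and 29, 27 and 24 in the others.

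Of the 28 tested members, 16 had a positive difference over 8 pools and 12 a negative one, with a median of 0.18, the same as the 0.18 of all genes tested. None was called (0% of all genes; smallest member adjusted p = 0.734, limma), and Elavl2 and Stmn3, both higher in the knockout, had an unadjusted p below 0.05, a level that 1.55% of all genes reached, 0.515% higher and 1.03% lower. With array weights limma called 8 genes (0.0329% of all genes), none of them a member. Without wild type pool 1, 19 of 26 differences were positive (73.1%, against 58.5% of all genes) and the median was 0.29, against 0.048 for all genes. Again none was called (0% of all genes; smallest member adjusted p = 0.36, limma), and 7 members reached an unadjusted p below 0.05, as 10.6% of all genes did. Of these, 6 were higher in the knockout (6.19% of all genes) and 1 was lower (4.41%). The knockout and wild type pools did not overlap for 5 members higher in the knockout (Elavl2, Elavl3, Elavl4, Map2, Stmn2; 6.6% of all genes) and 1 lower (Stmn4; 4.96%), 11.6% of all genes in both directions. With all 8 pools that held for Elavl2, Map2 and Stmn2 (4.1% of all genes higher) and for no member in the lower direction (1.4%, or 5.5% in both). Of the 26, 24 were above background in at least 3 pools of each group; Pou4f1 and Dcx met the filter through the knockout pools alone.

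**Figure D1:**
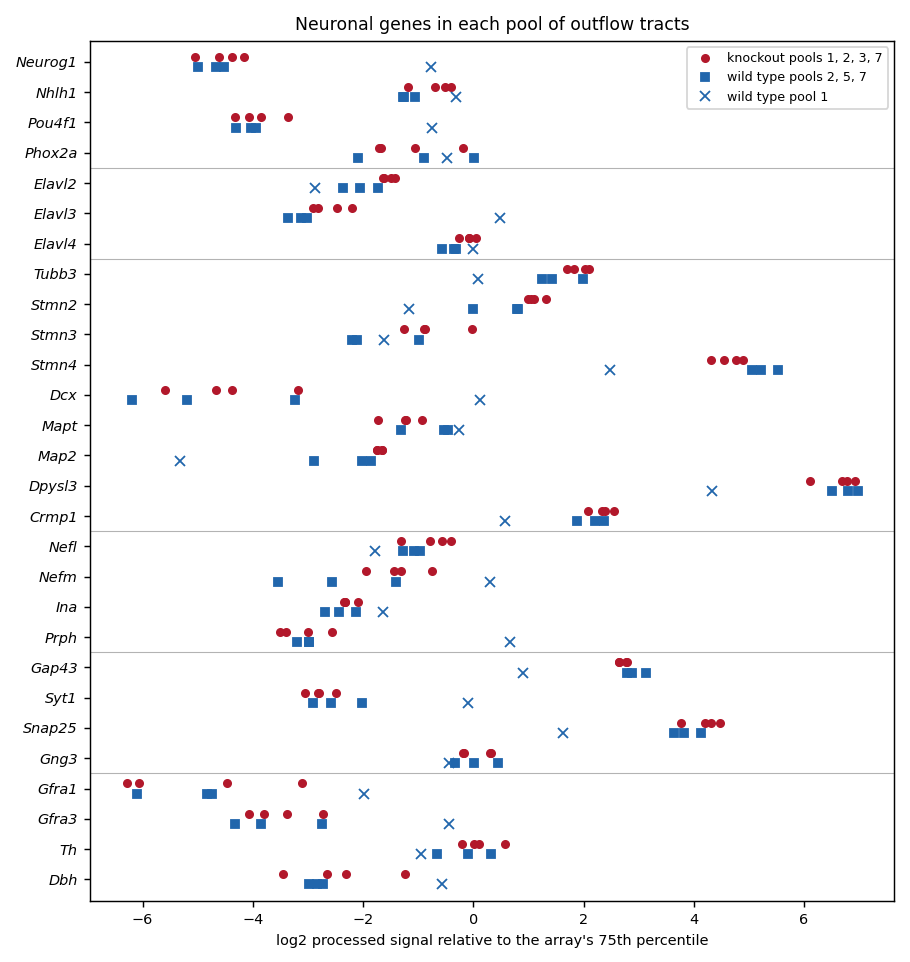
Each row is 1 neuronal gene and the x axis gives the log2 relative signal; circles are the 4 knockout pools, squares wild type pools 2, 5 and 7, and crosses wild type pool 1. The crosses lie far from the squares for most genes, and the circles lie right of all squares for Elavl2, Elavl3, Elavl4, Map2 and Stmn2 and left of them for Stmn4.

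By role, 2 of 3 transcription factors, 3 of 3 Hu proteins, 6 of 9 microtubule genes, 3 of 4 intermediate filament genes, 2 of 4 growth cone and synaptic genes and 3 of 3 autonomic genes were positive in 7 pools. Their medians were 0.19, 0.51, 0.36, 0.24, -0.098 and 0.26 in that order. With all 8 pools the medians were -0.47, 0.22, 0.58, 0.19, 0.22 and -0.35. The first and last of these include Neurog1 and Gfra1, which were not tested in 7 pools. Over the same genes as in 7 pools they were -0.29 for the transcription factors and -0.13 for the autonomic genes.

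No transcription factor gave groups that stood apart. Nhlh1, a bHLH factor switched on as neurons are born, had -0.40, -0.70, -1.19 and -0.51 in the knockout pools, against -0.32 in wild type pool 1 and -1.06, -1.25 and -1.28 in the other wild type pools. Knockout pools 1, 2 and 7 lay above wild type pools 2, 5 and 7, and knockout pool 3 lay among them. The difference was 0.50 ± 0.20 in 7 pools (SE; limma adjusted p = 0.45) and 0.28 ± 0.33 in 8. A second Nhlh1 probe gave 0.26 in 7 pools and -0.27 in 8, with overlapping groups. Phox2a, which specifies autonomic neurons, had -1.06, -1.67, -0.18 and -1.71 in the knockout pools, against -0.47 in wild type pool 1 and -2.09, -0.89 and 0.012 in the others. The pools of each group spread over more than the difference between groups, which was -0.16 ± 0.56 in 7 pools and -0.29 ± 0.53 in 8. Pou4f1, the POU factor of sensory neurons, ranged from -4.33 to -3.35 in the knockout pools, against -4.30 to -3.94 in wild type pools 2, 5 and 7, with -0.76 in wild type pool 1. Neurog1, a proneural factor of sensory neurons, had a very similar layout, with -5.05 to -4.16 in the knockout pools, against -4.99 to -4.52 in the 3 wild type pools and -0.78 in wild type pool 1. For both, wild type pool 1 was far above all other pools and the rest overlapped. The Pou4f1 difference was 0.19 ± 0.23 in 7 pools and -0.64 ± 0.745 in 8. Neurog1 was tested with 8 pools alone (-0.81 ± 0.86), since it met the filter through wild type pool 1.

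The Hu proteins, RNA-binding proteins that stabilise neuronal mRNAs, were all higher on average in the knockout once wild type pool 1 was set aside. Elavl2 had -1.41, -1.50, -1.61 and -1.63 in the knockout pools, against -2.87 in wild type pool 1 and -2.05, -1.74 and -2.36 in the other wild type pools. Every knockout pool was above every wild type pool, with or without pool 1. The difference was 0.51 ± 0.16 in 7 pools (1.42-fold; limma adjusted p = 0.383) and 0.71 ± 0.31 in 8 (adjusted p = 0.734). Elavl3 had -2.91, -2.81, -2.47 and -2.19 in the knockout pools, against 0.48 in wild type pool 1 and -3.37, -3.01 and -3.13 in the others. Here wild type pool 1 was the highest of all 8 and the remaining 3 wild type pools were the lowest. That pool decided the sign, with 0.58 ± 0.19 in 7 pools (1.49-fold; adjusted p = 0.407) and -0.34 ± 0.80 in 8. Elavl4 had -0.081, -0.076, -0.26 and 0.044 in the knockout pools, against -0.0066 in wild type pool 1 and -0.35, -0.57 and -0.31 in the others. Its groups were separate in 7 pools by a narrow gap, between -0.26 in knockout pool 3 and -0.31 in wild type pool 7, and they overlapped with pool 1. The difference was 0.32 ± 0.12 in 7 pools (1.25-fold; adjusted p = 0.43) and 0.22 ± 0.26 in 8.

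A second probe existed for 2 of the Hu genes. The other Elavl4 probe read -3.33, -3.04, -3.22 and -3.29 in the knockout pools, against -5.71 in wild type pool 1 and -4.05, -3.57 and -3.91 in the others, again with every knockout pool on top. Its difference was 0.62 in 7 pools and 1.09 in 8. The other Elavl2 probe differed by 0.30 in 7 pools and -0.021 in 8, with overlapping groups. In 7 pools this Elavl2 probe met the filter through the knockout pools alone, being above background in all 4 of them and in 2 of the 3 wild type pools.

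Among microtubule genes, the stathmins had differences of both signs. Stmn2, which destabilises microtubules in growing axons, had 1.33, 1.00, 1.10 and 1.04 in the knockout pools, against -1.16 in wild type pool 1 and 0.80, 0.82 and -0.0043 in the others. All knockout pools were above all wild type pools, and 2 of the 3 remaining wild type pools lay close below. The difference was 0.58 ± 0.22 in 7 pools (1.49-fold; limma adjusted p = 0.435) and 1.00 ± 0.45 in 8 (2.01-fold; adjusted p = 0.734). Stmn3, a stathmin of the same kind, had -0.025, -0.90, -1.25 and -0.87 in the knockout pools, against -1.61 in wild type pool 1 and -2.10, -0.99 and -2.21 in the others. Knockout pool 3 lay below wild type pool 5, so the groups overlapped. The difference was near 1.00 both ways, at 1.00 ± 0.38 in 7 pools (2-fold; adjusted p = 0.443) and 0.96 ± 0.39 in 8.

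Stmn4, the third stathmin, was lower on average in the knockout once wild type pool 1 was set aside. Its values were 4.77, 4.54, 4.89 and 4.32 in the knockout pools, against 2.48 in wild type pool 1 and 5.05, 5.22 and 5.52 in the others. Every knockout pool was below those 3 wild type pools and above wild type pool 1. The difference was -0.63 ± 0.18 in 7 pools (1.55-fold lower; limma adjusted p = 0.36, the smallest of any member) and 0.064 ± 0.63 in 8. A second Stmn4 probe, which shares 44 of 60 bases with the first and so is no independent reading, gave -0.69 in 7 pools and 0.089 in 8.

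Tubb3, the neuronal beta-tubulin, had 2.09, 1.83, 1.70 and 2.03 in the knockout pools, against 0.094 in wild type pool 1 and 1.43, 2.00 and 1.24 in the others. Wild type pool 5 lay among the knockout pools and the other wild type pools lay below them. The difference was 0.36 ± 0.20 in 7 pools (1.28-fold; limma adjusted p = 0.55) and 0.72 ± 0.41 in 8. Map2, the dendritic microtubule-associated protein, had -1.66, -1.66, -1.75 and -1.75 in the knockout pools, against -5.31 in wild type pool 1 and -1.86, -2.01 and -2.90 in the others. The knockout pools were nearly equal, with an SD of 0.053, and all lay above all wild type pools. The difference was 0.55 ± 0.24 in 7 pools (1.47-fold; adjusted p = 0.472) and 1.32 ± 0.70 in 8. On the second Map2 probe the knockout pools had -3.69, -3.75, -3.67 and -2.76, against 0.23 in wild type pool 1 and -3.74, -3.82 and -4.64 in the others. Wild type pool 1 was thus the lowest pool on one Map2 probe and the highest on the other. The second probe differed by 0.60 in 7 pools and -0.48 in 8. In 7 pools it met the filter through the knockout pools alone, being above background in all 4 of them and in 2 of wild type pools 2, 5 and 7.

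Mapt, the axonal protein tau, was lower on average in the knockout, with -1.23, -1.23, -1.73 and -0.93 in the knockout pools, against -0.26 in wild type pool 1 and -0.53, -1.31 and -0.45 in the others. Wild type pool 5 lay among the knockout pools. The difference was -0.52 ± 0.26 in 7 pools (1.43-fold; limma adjusted p = 0.522) and -0.64 ± 0.33 in 8, and its other 2 probes gave -0.48 and -0.17 in 7 pools and -0.41 and -0.52 in 8. Dpysl3 and Crmp1, collapsin response mediators of axon growth, differed by -0.14 ± 0.22 and 0.18 ± 0.16 in 7 pools and by 0.47 ± 0.58 and 0.58 ± 0.42 in 8. Their knockout pools spanned 6.10 to 6.92 and 2.08 to 2.55, against 6.51 to 6.98 and 1.89 to 2.37 in wild type pools 2, 5 and 7. The groups of both genes overlapped, and wild type pool 1 was their lowest pool, at 4.33 and 0.57. The second Dpysl3 probe gave -0.43 in 7 pools and -0.14 in 8. Dcx, the doublecortin of migrating young neurons, was near background, at -5.60 to -3.18 in the knockout pools, against -6.20 to -3.24 in the 3 wild type pools and 0.11 in wild type pool 1. The difference was 0.42 ± 0.78 in 7 pools and -0.83 ± 1.23 in 8, with errors larger than the differences. The other Dcx probes were above background in wild type pool 1 only.

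**Figure D2:**
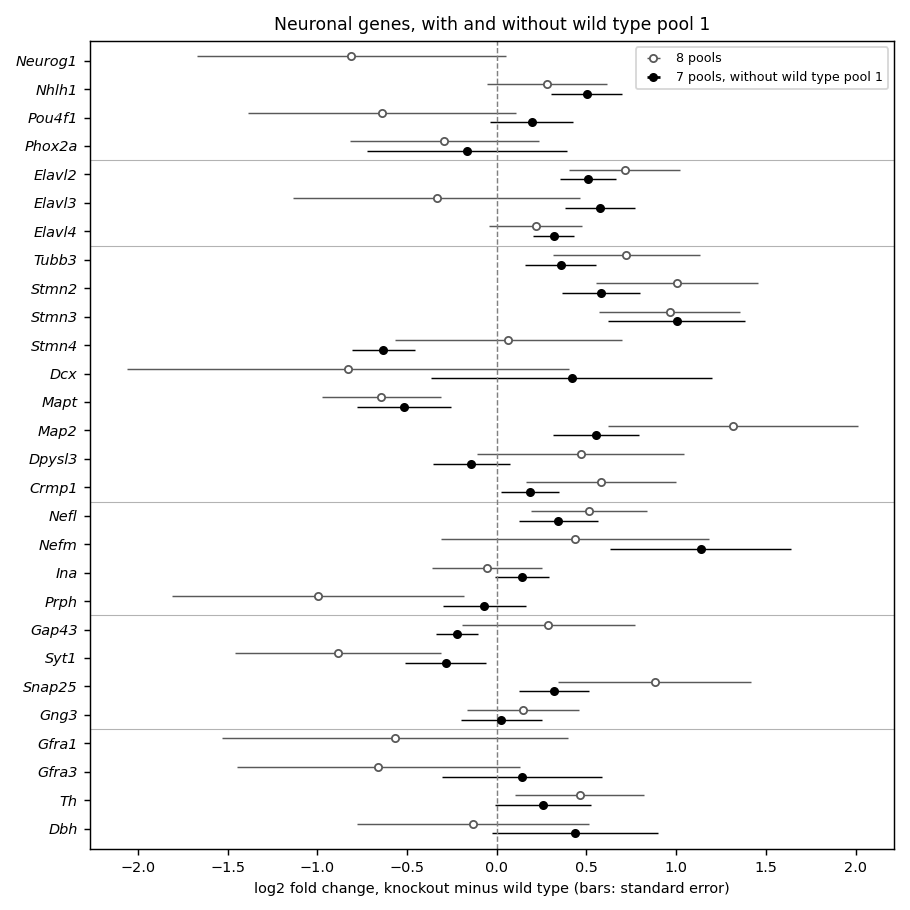
Each row is 1 neuronal gene; the x axis is the log2 difference, knockout minus wild type, with its standard error, as open points for 8 pools and filled points for the 7 pools without wild type pool 1. The filled points have shorter bars for every gene that has both except Phox2a, and Elavl3, Stmn4 and Gap43 are among the genes whose points lie on opposite sides of 0.

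Nefm, the medium neurofilament subunit, had the largest difference of all tested members in 7 pools. It read -1.44, -1.95, -1.32 and -0.74 in the knockout pools, against 0.30 in wild type pool 1 and -1.40, -2.56 and -3.55 in the others. Wild type pool 2 lay among the knockout pools, and the wild type pools ran over a wider range than the knockout pools. The difference was 1.14 ± 0.51 in 7 pools (2.2-fold; limma adjusted p = 0.478) and 0.44 ± 0.75 in 8. This probe was printed 10 times on each array, and the SD of log2 signal between its spots was 0.074 to 0.10 in the knockout pools, against 0.057 to 0.22 in the wild type pools. Spot-to-spot error was therefore smaller than the spread between pools, which was 0.50 in the knockout and 1.08 in wild type pools 2, 5 and 7 (SD of log2).

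The light neurofilament gene Nefl had -0.78, -1.31, -0.56 and -0.41 in the knockout pools, against -1.79 in wild type pool 1 and -1.28, -0.96 and -1.08 in the others. Knockout pool 2 was below those 3 wild type pools and the other knockout pools were above them. The difference was 0.34 ± 0.22 in 7 pools (limma adjusted p = 0.592) and 0.51 ± 0.32 in 8. Ina, alpha-internexin, and Prph, the peripherin of peripheral neurons, differed by 0.14 ± 0.15 and -0.07 ± 0.23 in 7 pools, with overlapping groups. Ina ranged from -2.35 to -2.09 in the knockout pools, against -2.69 to -2.12 in wild type pools 2, 5 and 7, and Prph from -3.50 to -2.57, against -3.19 to -2.97. In 8 pools Ina differed by -0.055 ± 0.31, and Prph differed by -0.998 ± 0.82, where wild type pool 1 read 0.66 and the other wild type pools -3.19 to -2.97.

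Growth cone and synaptic genes were divided, 2 positive and 2 negative in 7 pools. Gap43, the growth cone protein, had 2.64, 2.80, 2.65 and 2.78 in the knockout pools, against 0.91 in wild type pool 1 and 2.88, 2.79 and 3.14 in the others. The knockout pools lay at or below the level of those 3 wild type pools, with 1 knockout pool just above wild type pool 5. The difference was -0.22 ± 0.12 in 7 pools (limma adjusted p = 0.533) and 0.29 ± 0.48 in 8. Snap25, the vesicle fusion protein, had 4.47, 4.31, 4.201 and 3.77 in the knockout pools, against 1.62 in wild type pool 1 and 3.83, 4.13 and 3.65 in the others. Knockout pool 7 lay among the wild type pools and the other 3 lay above them. The difference was 0.32 ± 0.20 in 7 pools (1.25-fold; adjusted p = 0.579) and 0.88 ± 0.54 in 8, on the probe with the CA run. Syt1, the calcium sensor of synaptic vesicles, had -2.82, -2.81, -3.05 and -2.49 in the knockout pools, against -0.10 in wild type pool 1 and -2.91, -2.58 and -2.02 in the others. The groups overlapped, and wild type pool 1 was the highest of all. Syt1 differed by -0.29 ± 0.23 in 7 pools and -0.89 ± 0.57 in 8. Gng3, a neuronal G protein gamma subunit, ranged from -0.18 to 0.33 in the knockout pools, against -0.43 to 0.45 in the wild type pools, and differed by 0.025 ± 0.23 in 7 pools and 0.15 ± 0.31 in 8.

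Of the autonomic genes, Dbh varied more among the knockout pools (SD 0.92) than among wild type pools 2, 5 and 7 (SD 0.13). Dbh, which makes noradrenaline, had -2.30, -3.46, -1.24 and -2.65 in the knockout pools, against -0.57 in wild type pool 1 and -2.72, -2.99 and -2.84 in the others. Knockout pools 1, 3 and 7 were above those wild type pools and knockout pool 2 was below them. The difference was 0.44 ± 0.46 in 7 pools (limma adjusted p = 0.746) and -0.13 ± 0.65 in 8. Th, the first enzyme of catecholamine synthesis, had 0.0065, 0.11, -0.21 and 0.57 in the knockout pools, against -0.96 in wild type pool 1 and 0.32, -0.65 and -0.087 in the others. Its groups overlapped, at 0.26 ± 0.27 in 7 pools and 0.46 ± 0.36 in 8. Gfra3, a GDNF family co-receptor, had -3.38, -3.80, -4.08 and -2.73 in the knockout pools, against -0.44 in wild type pool 1 and -2.74, -4.32 and -3.86 in the others. Apart from that pool the groups covered a common range. Gfra3 differed by 0.14 ± 0.44 in 7 pools and -0.66 ± 0.79 in 8. Gfra1, the GDNF co-receptor, ranged from -6.29 to -3.10 in the knockout pools, against -6.10 to -1.98 in all 4 wild type pools, and was tested with 8 pools alone (-0.57 ± 0.97), since like Neurog1 it met the filter through wild type pool 1.

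Taking the 26 members by pool without wild type pool 1, knockout pool 7 held the highest value in 11 (42.3%, against 29.9% of all genes) and knockout pool 1 in 7 (26.9%, against 8.91%). Wild type pool 7 held the lowest value in 11 (42.3%, against 22.0%) and the highest in 5 (19.2%, against 21.9%). Knockout pool 2 and wild type pool 2 held the highest in none, against 7.97% and 8.78% of all genes. The mean of the members, each taken relative to its own mean of 7 pools, was 0.16, -0.093, 0.075 and 0.25 in the knockout pools, against -0.03, -0.13 and -0.23 in wild type pools 2, 5 and 7. Knockout pool 2 thus lay among the wild type pools. On the same scale wild type pool 1 had 0.24.

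In wild type pool 1, 13 of the 28 tested members had their highest value of the 8 pools, 12 their lowest and 3 neither. Of 24 member probes with a mean under -2 over the other 7 pools, 23 were higher in wild type pool 1, and of 7 with a mean over 1, none was. Relative to that array's 75th percentile, dim neuronal probes thus read higher and bright ones lower than elsewhere, though bright probes such as Dpysl3 and Stmn4 still lay above that percentile, at 4.33 and 2.48. Across all 55633 probes the same relation had a correlation of -0.90 between a probe's mean and its deviation in that pool (-0.84 over the 45 member probes). The mean enters both measures and the probes share 1 array, so these coefficients are descriptions. Of the members, 7 have several probes that met the filter. Such probes took opposite signs in 4 of 7 with all 8 pools (36.2% of all genes with several such probes). Without wild type pool 1 they did so in none of 7 (36.4%). There the other Elavl2 and Map2 probes met the filter through the knockout pools alone, which favours a positive sign. The Stmn4 probes share 44 bases and are no independent readings. The count without that pool therefore cannot show that probes of members agree more often than those of all genes.

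**Figure D3:**
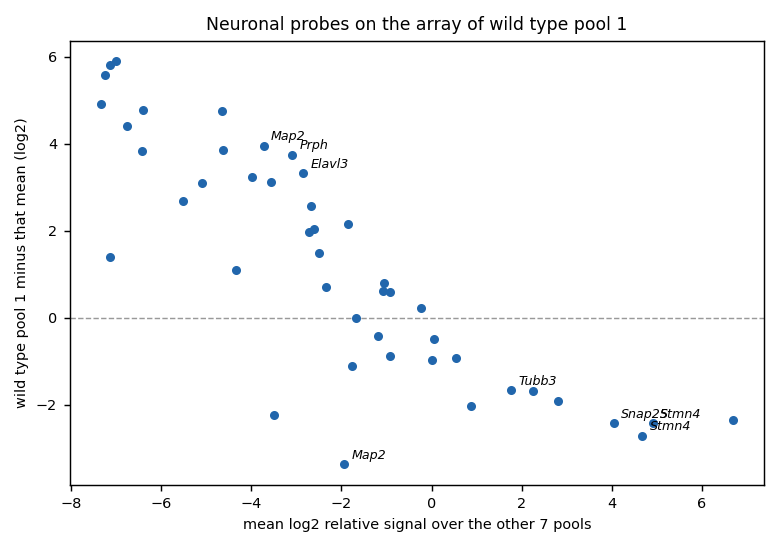
Each point is 1 of the 45 neuronal probes; the x axis is its mean log2 relative signal over the other 7 pools and the y axis is wild type pool 1 minus that mean (log2). Of 24 probes with a mean under -2, 23 lie above 0, and of 7 with a mean over 1, none does. The 2 Map2 probes lie far apart.

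Scaling mattered for the small differences. Over 7 pools the median difference of all genes was 0.048 with 75th percentile scaling, -0.0025 after quantile normalization and -0.17 with median scaling. The member medians were 0.29, 0.24 and 0.068 in that order, above the median of all genes in each. Scaling by the 75th percentile or by the median subtracts a constant per array. Between those scalings the gap between members and all genes therefore could not change. Of the 26 members, 21 had 1 sign under all 3 scalings, 14 positive and 7 negative. After quantile normalization the groups did not overlap for Elavl4 and Stmn2 (5.28% of all genes higher) and Stmn4 (6.83% lower). With median scaling no member lay wholly above (0.807% of all genes), and Gap43, Mapt and Stmn4 lay wholly below (11%). Over these 7 pools, Stmn4 was the only member whose groups were separate in 1 direction under all 3 scalings.

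Beside the members, 59 other neuronal genes were listed, of which 48 were tested in 7 pools and 49 in 8. Isl1 and Hand2 are on this list and also among the outflow tract genes, so the lists are not separate. In 7 pools 35 of 48 differences were positive (72.9%, against 58.5% of all genes), with a median of 0.17, and in 8 pools 31 of 49 (63.3%, against 59.5%), with a median of 0.19; none was called either way (0% of all genes). Several of the 48 met the filter in 7 pools through the knockout pools alone, all of them positive. Sncb met it through the wild type pools alone and was negative. In 7 pools the groups of 1 of the 48, the tubulin gene Tubb4a, did not overlap, where 11.6% of all genes had groups apart. Its values were 4.205, 4.17, 4.09 and 4.29 in the knockout pools, against 4.30, 4.43 and 4.55 in wild type pools 2, 5 and 7, with 1.98 in wild type pool 1. It was lower in the knockout by -0.24 ± 0.10 (limma adjusted p = 0.472) in 7 pools and differed by 0.37 in 8. The mean of these other neuronal genes was 0.013, -0.11, 0.018 and 0.45 in the knockout pools, against 0.17, -0.18 and -0.37 in wild type pools 2, 5 and 7. Knockout pool 7 was highest and wild type pool 7 lowest, as for the members.

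A list of 5 repressor genes joined Rest, which holds neuronal genes down in other cells, and 2 of its co-repressors with the scratch family genes Scrt1 and Scrt2, which are not part of that complex. Rest itself had 2.67, 2.71, 2.92 and 2.85 in the knockout pools, against 0.79 in wild type pool 1 and 2.75, 2.89 and 2.86 in the others, and differed by -0.046 ± 0.10 in 7 pools and 0.47 in 8. Rcor2, a co-repressor partner, had 4.46, 4.18, 4.30 and 4.67 in the knockout pools, against 3.34 in wild type pool 1 and 5.02, 4.78 and 5.39 in the others. All knockout pools were below those 3 wild type pools, with a difference of -0.66 ± 0.18 (limma adjusted p = 0.36) in 7 pools and -0.23 in 8. Scrt1, a neuronal zinc finger repressor, was near background, with -4.81, -4.68, -4.59 and -3.84 in the knockout pools, against -2.05 in wild type pool 1 and -5.37, -4.86 and -4.92 in the others. Its difference was 0.57 ± 0.25 in 7 pools and -0.18 in 8. In 7 pools it met the filter through the knockout pools alone, being above background in 4 of them and in 1 of the 3 wild type pools. Of the 5, 2 were positive in each, Scrt1 among them in 7 pools, with medians of -0.046 and -0.18.

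Markers of other cells that a dissected tract could hold were read in the same pools. Neural crest and Schwann precursor genes had a median of 0.057 over 11 tested in 7 pools, 7 of them positive, and -0.20 in 8. Neural tube progenitor genes had a median of 0.13 over 21 in 7 pools, 14 of them positive, and -0.12 over 22 in 8. Their mean was 0.15, -0.038, -0.36 and 0.63 in the knockout pools, against 0.067, -0.11 and -0.34 in wild type pools 2, 5 and 7. In this list and the crest list, some genes met the filter in 7 pools through the knockout pools alone, with differences of both signs. Of the 29 listed, 20, 23, 19 and 21 were above background in the knockout pools, against 22, 21 and 12 in wild type pools 2, 5 and 7, while Pax7, Olig2, Zic2 and En1 were so in none of these 7. Msi1, an RNA-binding protein of progenitors, was higher in every knockout pool of 7 by 0.13 ± 0.087 (adjusted p = 0.601), and in 8 by 0.04 with overlap. Knockout pool 7 was the highest pool for the neural tube list as it was for the neuronal members, and the part of such tissue in the neuronal differences was not tested.

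Placode and pharyngeal epithelium genes had a median of 0.33 over 12 in 7 pools, 7 of them positive, and -0.079 in 8. Their mean was 0.042, 0.072, -0.95 and 1.16 in the knockout pools, against 1.11, -0.72 and -0.71 in wild type pools 2, 5 and 7, so pools within a group differed by more than the groups. Of this list, Pax8, Epcam and Foxe1 met the filter in 7 pools through the knockout pools alone, and all were positive there. Krt19, a keratin of simple epithelia, was lower in every knockout pool of 7 (-1.88 ± 0.24, limma adjusted p = 0.217; -1.45 in 8), as was Krt8 (-0.69 ± 0.15, adjusted p = 0.341; -0.20 in 8). All 12 cardiomyocyte genes were negative in 7 pools, with a median of -0.19, while 11 of 12 were positive in 8, with a median of 0.34. Nppa and Myh6, genes of atrial and early heart muscle, were lower in every knockout pool of 7 (-2.59 ± 0.93, adjusted p = 0.426, and -0.47 ± 0.17, adjusted p = 0.434; -1.65 and 0.17 in 8). Endothelial genes had 4 of 8 positive and a median of 0.053 in 7 pools, against 7 of 8 and 0.58 in 8, with Tie1 higher in every knockout pool both ways (0.34 and 0.87). Erythroid genes were all 8 positive both ways, with medians of 0.75 in 7 pools and 1.08 in 8. The 8 outflow tract genes were all positive too, at 0.44 in 7 pools and 0.87 in 8, with Sema3c (0.83 and 1.25) and Rgs5 (0.57 and 1.02) higher in every knockout pool both ways. The part of any of these cell types in the neuronal values was not tested.

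**Figure D4:**
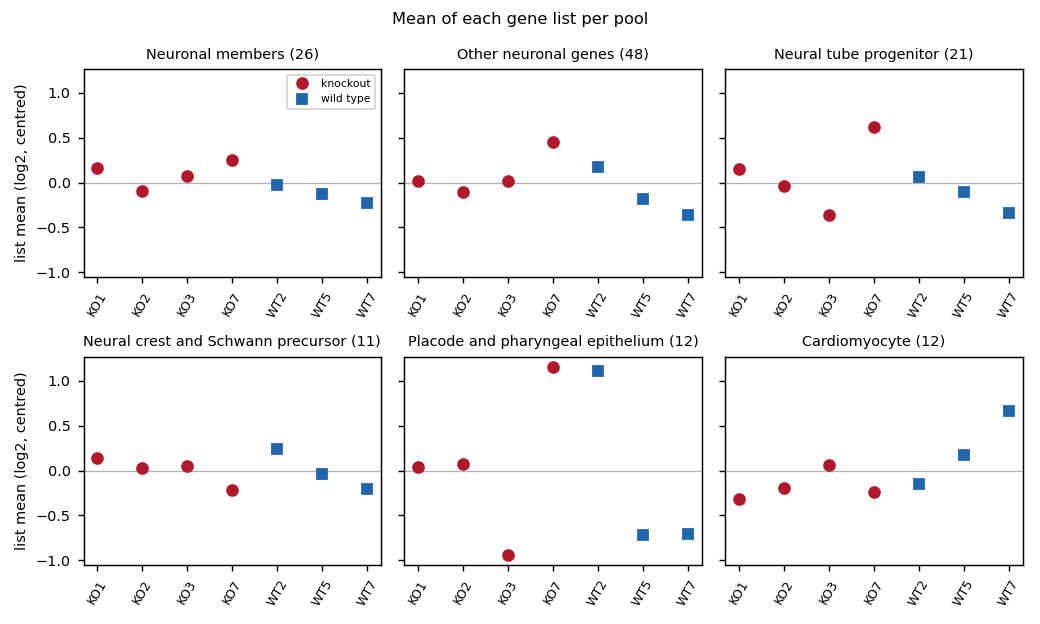
Each panel is 1 gene list and the y axis is the mean of its tested genes in a pool, with every gene set to a mean of 0 across the 7 pools (log2); circles are knockout pools and squares wild type pools 2, 5 and 7. The neuronal members run from 0.25 in knockout pool 7 to -0.23 in wild type pool 7, and the placode and pharyngeal epithelium list spreads from 1.16 to -0.95 in the knockout pools, against 1.11 to -0.72 in the wild type pools.

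RefSeq windows of 300 bases around the start (GRCm38.p6) were found for 24 of the 34 members, 36 windows in all, since a gene can have several. The E-box CANNTG, the general site of bHLH factors, stood in 72.2% of them, against 72.3% of 32851 windows of all genes. Its form CAGATG stood in 6 of the 36 (16.7%), against 17.2% of all windows. Another form, CAGCTG, stood in 12 (33.3%), windows of 9 members, against 16.3% of all windows. TTCAGCACC, the first half-site of the RE1 element, stood in none of the 36 and in 0.371% of all windows. These motifs were searched on both strands. Windows of 1 gene can share bases, so the shares are descriptions.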

How the data were processed

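Total RNA was extracted without DNase treatment and labelled with Cy3, per the labels' protocols. The scanner files hold intensity values per spot that the authors deposited; per the file headers Agilent Feature Extraction, version 10.7.3.1, made them with protocol GE1_107_Sep09 and gives probe positions in mm9. The processed signal is background-subtracted there and not scaled between arrays. The deposited value table holds the same intensity to within 0.497% and was used as an alternative. From the deposited intensity, log2 values minus each array's 75th percentile were computed here, outlier spots were left out and spots of a probe were averaged. Probes were kept where well above background on 3 arrays of 1 group, and each gene was read from its brightest kept probe (by mean). The knockout minus wild type difference was tested with limma 3.58.1 in R 4.3.3 (lmFit, eBayes), with Benjamini-Hochberg adjustment over all genes and a threshold of 0.05. The fit was also run on simulated data with the same spread for all genes and no array like that of wild type pool 1. That run cannot show how the fit handles such an array. No spot was saturated, and the number of arrays limits the precision. Map2 stands in the files as Mtap2. The members and all gene lists were chosen with earlier results of these data known. Text values cover all members; of other lists, genes whose groups do not overlap. Alternatives were other scaling, background, filter, probe, variance, weight and block settings, and leaving out each pool. Results for some listed genes are not reported here.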

Additional observations from a re-analysis of the deposited data

Results flagged for a closer look

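In 9 of 58 groups of 4 pools for the members and Aldh1a2, 1 pool lay further from the rest than Dixon's 95% limit allows; about 1 group in 20, or 2.9, would do so by chance. Wild type pool 1 makes up 7 of the 9, the highest in 5 and the lowest in 2. It was the highest for Neurog1 at -0.78 (other wild type pools -4.99 to -4.52), for Pou4f1 at -0.76 (-4.30 to -3.94) and for Elavl3 at 0.48 (-3.37 to -3.01). The same held for Prph at 0.66 (-3.19 to -2.97) and Dbh at -0.57 (-2.99 to -2.72). It was the lowest for Stmn4 at 2.48 (5.05 to 5.52) and for Gap43 at 0.91 (2.79 to 3.14).

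Knockout pool 7 accounts for the other 2. It was the lowest knockout pool for Aldh1a2 at 0.28 (2.11 to 2.26) and the highest for Ina at -2.09 (-2.35 to -2.33).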

How the results depend on the processing

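No member was called under any of the alternatives run; the lowest member adjusted p was 0.232, for Elavl2 with array weights (limma). The number of members whose groups did not overlap, 3 over 8 pools, was 1 after quantile normalization (all genes: 4.16% higher, 2.44% lower), 0 with median scaling (0.436%, 0.659%), 6 without wild type pool 1 (6.6%, 4.96%) and 6 without wild type pool 5 (11.3%, 2.98%), with a range of 3 to 6 when 1 pool was left out. The member median was 0.69 with median scaling, where the median of all genes was also 0.69, and 0.12 to 0.29 when 1 pool was left out. Genes called numbered 8 with array weights, where wild type pool 1 had a weight of 0.0154, and 22 without that pool under median scaling, against 0 otherwise, leaving out 1 pool included (0 to 0). Without 1 pool, the smallest member adjusted p ran from 0.36 to 0.859 and the Aldh1a2 difference from -1.80 to -0.92. Of 28 members, 13 kept 1 sign in all 22 alternatives that give 1 value per gene. The cause of these shifts was not tested.

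Pool numbers 1, 2 and 7 occur in both groups. Deviations from the group means correlated at -0.15, 0.32 and -0.41 within those numbers. The wild type mean includes wild type pool 1, whose array stands apart, so these values cannot show whether equal numbers pair pools. With pool number as a replicate block the member median was 0.18 (random) and 0.19 (fixed), members called stayed 0, and the smallest member adjusted p was 0.744 and 0.799.

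The limits are the array of wild type pool 1, the slide rows that follow genotype, and signals near background for Neurog1, Pou4f1, Dcx, Gfra1 and Gfra3.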
